A study of Xenopus laevis with 2 samples.

Results

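The genes described here encode the nuclear subunits of oxidative phosphorylation, complexes I to V, together with cytochrome c. They were chosen by gene name, as every probe set whose single platform symbol began with nduf, sdha to sdhd, uqcr, cox4 to cox8 or atp5, or was cyc1 or cycs. The rule found 73 of 15491 probe sets, which stand for 69 of the 7531 genes with a symbol. All 73 matched the gene table of Xenopus_laevis_v10.1 by Entrez ID. Complex I had 26 genes, complex II 4, complex III 6, complex IV 13 and complex V 17, and cytochrome c (cycs.S), an assembly factor (ndufaf7.S) and an inhibitor of the ATP synthase (atp5if1.L) had 1 each.

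The samples were dorsal posterior fragments of Xenopus laevis neurulae at stage 18, mostly mesoderm by the labels, measured on an Affymetrix array. One group was labelled wildtype. The other was labelled Derriere depleted and received 2 ng of an antisense morpholino on the lateral side of the dorsal blastomeres at the 4-cell stage, with GFP given alongside to follow the injection. Derriere (gdf3) is a secreted TGF-beta family ligand, and a morpholino is a DNA-like oligomer that binds an RNA and keeps it from being translated or spliced. The labels do not state the strain, what the wildtype embryos received or how many embryos were pooled, and they give the genotype as NA. The study asked which transcripts depend on Derriere in posterior mesoderm. With 1 array per group there are no replicates, no p-value is given, and every count and median is a description of these arrays.

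Oxidative phosphorylation is the chain by which mitochondria make ATP. Complex I takes electrons from NADH and complex II from succinate, complex III passes them to cytochrome c, and complex IV gives them to oxygen. Complexes I, III and IV pump protons across the inner membrane, and complex V, the ATP synthase, lets them back in to drive ATP synthesis. Muscle is among the tissues richest in these complexes, and the dorsal posterior neurula holds forming somites. A few subunits of complexes I, III, IV and V are encoded in mitochondrial DNA. None of the 14 symbols listed for those matched a named probe set, so the values here concern nuclear genes. The frog carries many genes in 2 copies (homeologs), named .L for the long subgenome and .S for the short.

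Signals are the deposited MAS5 intensities, and where a pair of signals is given the array labelled wildtype comes first. A log2 ratio divides the array labelled Derriere depleted by the one labelled wildtype and is centred on the median of the 7747 probe sets with a mean signal of at least 75. Genes are means over such probe sets, and 4543 genes, 60 of them in the set, were measured in this way. The brightness of different probe sets says nothing about which transcript is more abundant. Before any direction is read, the targeted transcript has to be given. The probe set for gdf3.S read 552.0 and 2318.6, 4.17-fold higher under the label of depletion, and the array's EGFP control read 72.7 and 10.0, higher under the wildtype label and below the floor of 19.7 under the other. A morpholino that blocks translation or splicing need not lower its target's RNA, and both EGFP signals lay under the filter of 75. Neither value settles whether the labels are right, and an exchange of the labels would reverse every direction below. Of 9 posterior mesoderm genes listed, 6 were measured, 4 of them above 0 and 2 below. Among them tbx6.L read 2294.1 and 2464.9, msgn1.L 1149.5 and 1341.4, and wnt8a.L 952.8 and 832.2. Markers of other tissues passed the filter as well, such as the epidermis gene itln1.L at 8244.9 and 7025.5. These signals therefore do not settle which tissues the fragments held.

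As a group, the genes of oxidative phosphorylation gave slightly lower signals with the label Derriere depleted. Over the 57 measured subunits of complexes I to V the median log2 ratio was -0.17, or 1.13-fold lower, against -0.0057 over all 4543 genes. Of the 57, 45 lay below 0, which is 78.9%, where 50.8% of all genes did. The shift was made of many small differences. Only uqcrq.S was 1.5-fold lower or more, and only atp5pd.S 1.5-fold higher or more. Of all genes 3.08% were at least 1.5-fold lower and 2% at least 1.5-fold higher, so the share of subunits past that size was near the background. No measured subunit passed 2-fold, which 0.242% of all genes did in the lower direction and 0.374% in the higher. Fewer cells of a type and less transcript per cell cannot be told apart in dissected tissue.

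The direction was alike without the signal filter. Of all 73 probe sets, 57 had the lower deposited signal under the depleted label, which is 78.1%, against 53.4% of all 15491 probe sets. Without the filter the 65 subunit genes above the floor had a median of -0.18, and all 6348 genes had -0.021. The genes that failed the filter were ndufs3.L, ndufs3.S, ndufs4.S, sdha.S, sdhd.S, cox5b.2.L, cox4i2.L, atp5mc1.L and atp5pd.L. Of these 9, cox4i2.L, at 19.5 and 17.0, lay below the floor in both arrays and has no ratio.

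**Figure D1:**
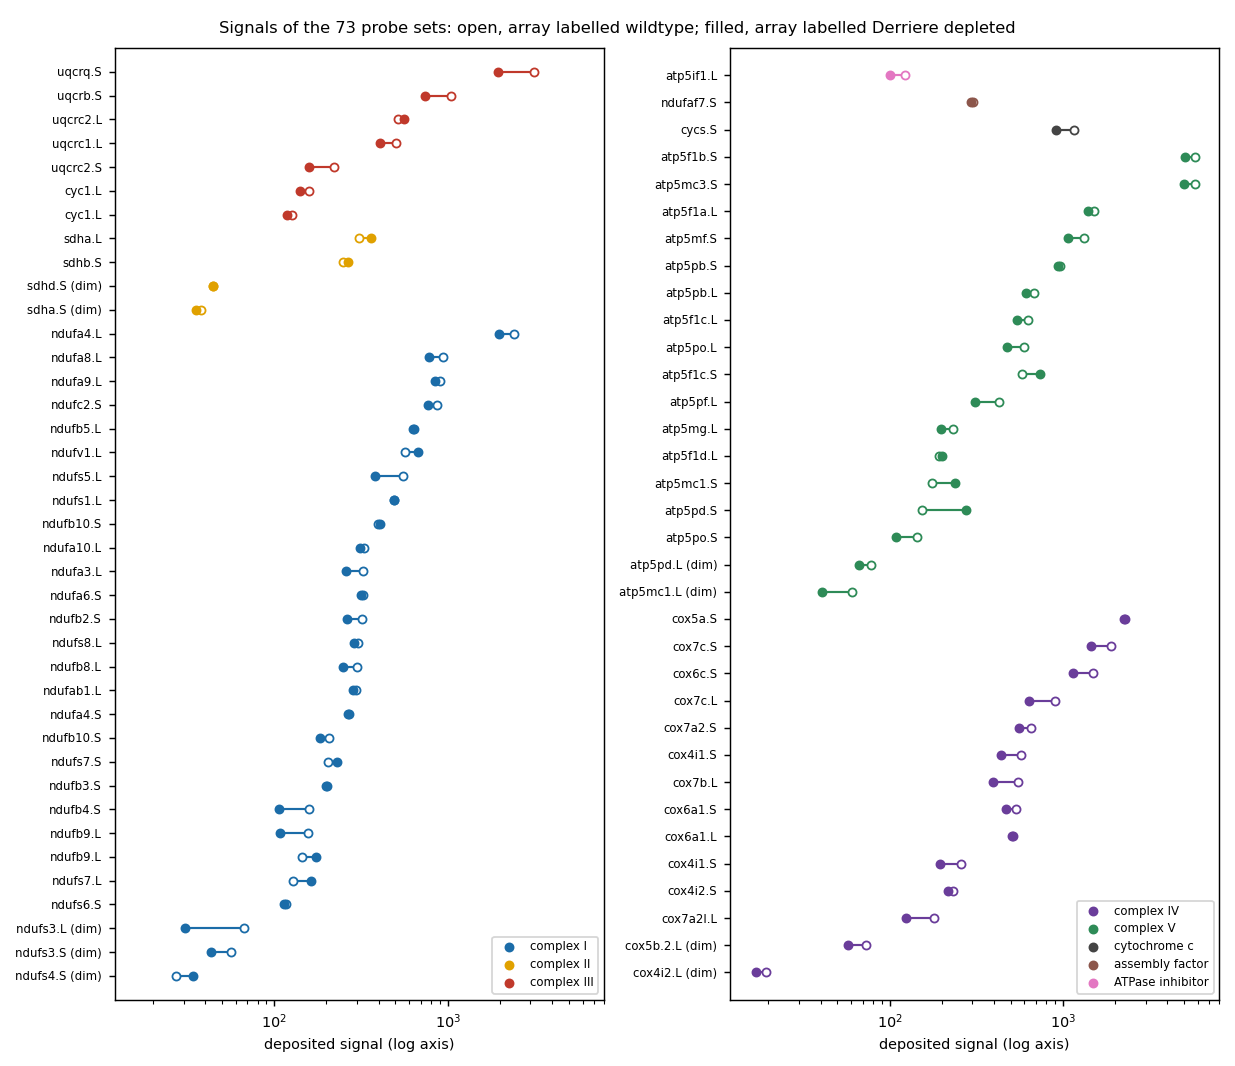
Deposited signal of each of the 73 probe sets on a log axis, with the array labelled wildtype as an open point and the array labelled Derriere depleted as a filled one. Rows are grouped by complex, a repeated gene name marks a further probe set, dim marks the 9 probe sets under the filter, and 57 of 73 filled points lie to the left of their open point.

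The size of a single gene's ratio has to be read against the noise of the array. In 580 genes read by more than 1 probe set, the probe sets of a gene differed with a pooled SD of 0.228 on the log2 scale. That figure, called the technical SD below, covers only differences between probe sets on the same arrays. Errors that the probe sets of a gene share, and the spread between embryos, are not in it. Of the 60 measured genes of the set, 25 lay further below 0 than this SD and 5 further above it. Among all genes the shares were 22.7% and 19.0%, and in the set they were 41.7% and 8.33%. The other 30 genes of the set lay within it, so the description rests on how the members of each complex lay together. All members were read on the same arrays, so their lying together is no replication.

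Complex I had a small shift, and under the filter used its core and accessory medians lay on opposite sides of 0. The 23 measured subunits had a median log2 ratio of -0.075, and 20 were below 0. Its core subunits, which include those that bind NADH and carry the flavin and the iron-sulfur clusters, are conserved in bacteria, while the accessory subunits surround them. The 5 measured core genes had a median of 0.17, with 3 above 0, and the 18 accessory genes had a median of -0.12, with 18 below 0. Both copies of ndufs7 are among the 3. With homeologs averaged, 4 core genes had a median of 0.11, with 2 below 0. In that setting 17 accessory genes had a median of -0.14, with 17 below 0. The grouping follows the known structure and was made with the values in view, so it carries no test.

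Among the core genes, ndufv1.L, the subunit that holds the flavin and binds NADH, read 568.5 and 673.9, a log2 ratio of 0.24. The iron-sulfur subunit gene ndufs7 was higher in both copies, with ndufs7.L at 127.4 and 162.7 and ndufs7.S at 202.8 and 229.8, log2 ratios of 0.34 and 0.17. A further probe set that names both copies of ndufs7 did not share that direction and read 151.5 and 147.7. The largest iron-sulfur subunit, ndufs1.L, was level at 488.2 and 487.8, and ndufs8.L, which also carries iron-sulfur clusters, read 302.3 and 289.2. The positive median of the core genes depended on the filter. The core gene ndufs3 was dim in both copies, with ndufs3.L at 66.8 and 30.7 and ndufs3.S at 56.6 and 43.4, the former 2.19-fold lower. With these included, the 7 core genes had a median of -0.0012, and under the stricter filter at the 75th percentile the 3 that were left had -0.015.

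The accessory genes of complex I spread from near 0 to -0.58. The lowest was ndufb4.S, a membrane-arm subunit, at 158.6 and 106.8, which is 1.49-fold lower. Close to it came ndufs5.L, a small subunit on the intermembrane-space side, at 554.3 and 383.3, a log2 ratio of -0.54. The next lowest was ndufa3.L, another small subunit of the membrane part, at 325.9 and 260.2, a log2 ratio of -0.33. These 3 lay further below 0 than the technical SD, as did ndufa8.L at -0.27, ndufb2.S at -0.29, ndufb8.L at -0.29 and ndufa4.L at -0.29.

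The gene values of the other accessory genes lay no further from 0 than the technical SD. The furthest was ndufc2.S at 870.9 and 768.3, a log2 ratio of -0.19. The mitochondrial acyl carrier protein gene ndufab1.L read 297.5 and 286.2, the zinc-binding subunit ndufs6.S read 116.3 and 113.2, and ndufb5.L read 643.5 and 634.0. The nearest to 0 were ndufa4.S at -0.0046, ndufb3.S at -0.020 and ndufb5.L at -0.030, and without centring ndufa4.S was above 0. The 2 probe sets of ndufb9.L disagreed: 1 read 156.6 and 108.1, the other 144.6 and 174.4, so its mean of -0.14 stands for no shared direction. Both probe sets of ndufb10.S straddled 0 as well, at 0.037 and -0.19. Taking the brightest probe set of each gene left 16 of 18 accessory genes below 0, and without the filter 17 of 19 were. Above 0 there were ndufs4.S, which the filter had left out at 27.0 and 33.8, and ndufa4.S, which the changed centring moved to 0.0043.

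The assembly factor ndufaf7.S was almost level. It encodes a methyltransferase that, in human cells, acts early in the assembly of complex I, and it read 304.4 and 294.3, a log2 ratio of -0.058. It was the only assembly factor that the naming rule found, so subunits and assembly factors cannot be compared within the set. A wider list of factors is described further on.

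The measured genes of complex II lay above 0, but they were few. Succinate dehydrogenase has no subunit encoded in mitochondrial DNA and also works in the citric acid cycle. The flavoprotein gene sdha.L read 309.5 and 360.3, a log2 ratio of 0.21, and the iron-sulfur gene sdhb.S read 247.5 and 264.6, a log2 ratio of 0.087. Both lay within the technical SD. The dim genes did not share the direction, with sdha.S at 37.9 and 35.5 and the membrane anchor gene sdhd.S at 44.5 and 44.3, and a probe set naming both copies of sdhd read 90.6 and 73.4. Over the 4 genes without the filter the median was 0.045.

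Complexes III and IV had the lowest medians among the genes taken in by the naming rule. Over the 6 measured genes of complex III the median log2 ratio was -0.40, or 1.32-fold lower, and 5 were below 0. The small subunit uqcrq.S, which sits beside cytochrome b, read 3133.5 and 1954.3, 1.61-fold lower and the lowest measured gene of the set. The other small subunit, uqcrb.S, read 1039.7 and 742.1, 1.41-fold lower. Both are bright probe sets, where the spread of other genes is narrower: the SD of the log2 ratio among other genes was 0.258 in the brightest of 4 equal signal bins and 0.372 in the dimmest.

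The core proteins of complex III, relatives of mitochondrial processing peptidases, were divided. The gene uqcrc1.L read 506.3 and 407.7, a log2 ratio of -0.32. The copies of uqcrc2 went apart, with uqcrc2.S at 220.8 and 158.4 and uqcrc2.L at 514.6 and 558.8, log2 ratios of -0.49 and 0.11, while a probe set naming both copies read 242.8 and 287.5. The haem-bearing cytochrome c1 gene, cyc1.L, had 2 probe sets that read 159.0 and 140.3, and 125.7 and 118.5, for a mean of -0.14. The Rieske iron-sulfur gene uqcrfs1 had only a probe set naming both copies, so the rule left it out, and it was near level at 2600.2 and 2530.5. These redox genes of complex III lay closer to 0 than its small subunits.

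Cytochrome c, the mobile carrier between complexes III and IV, was lower too. The gene cycs.S read 1164.7 and 917.3, which is 1.28-fold lower.

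**Figure D2:**
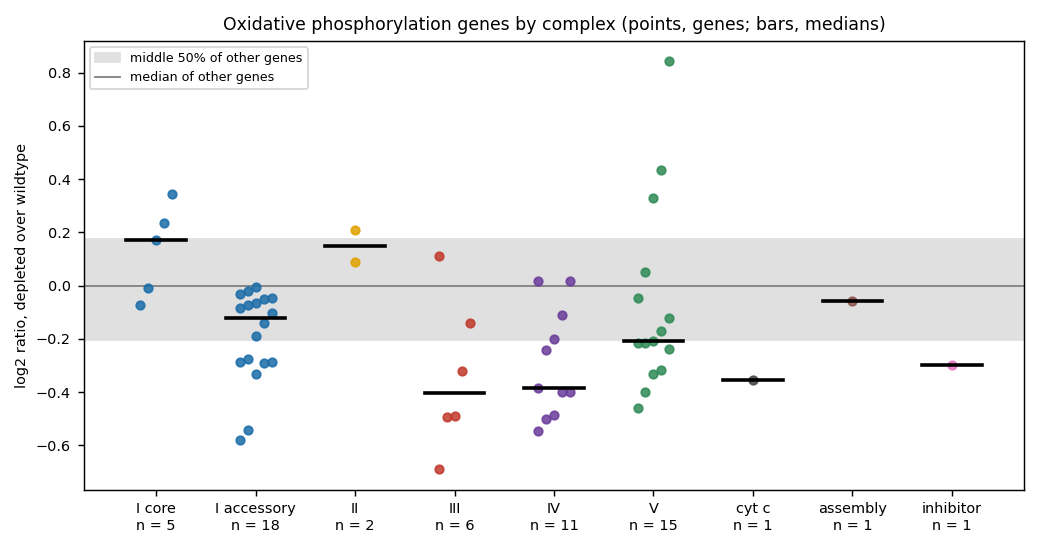
Log2 ratio of each of the 60 measured genes, by complex, with complex I split into core and accessory subunits. Points are genes, black bars are medians, and the grey band holds the middle 50% of the other 4483 genes. The medians of complexes III and IV, at -0.40 and -0.39, lie below the band, whose lower edge is at -0.204. The complex V median, at -0.207, lies just under that edge. The single genes for cytochrome c and the inhibitor, at -0.35 and -0.30, lie below the band too. The medians of complex II and of the complex I core genes lie above 0, with 2 of the 5 core genes below 0.

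Complex IV was close to complex III. Its 11 measured genes had a median of -0.39 on the log2 scale, or 1.31-fold lower, and 9 were below 0. The order of these complexes was not stable: with homeologs averaged complex III had -0.32 and complex IV -0.40. Its nuclear subunits surround the catalytic centre, which mitochondrial DNA encodes. The copies of cox7c read alike, cox7c.L at 898.7 and 639.5 and cox7c.S at 1896.5 and 1460.2, log2 ratios of -0.50 and -0.39. The gene cox7b.L read 550.6 and 396.0, 1.40-fold lower, and cox6c.S read 1496.7 and 1140.8, 1.32-fold lower. The subunit relative cox7a2l.L, known in mammals for its part in joining complexes III and IV into supercomplexes, read 181.2 and 124.7, 1.46-fold lower.

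The regulatory subunit gene cox4i1.S, which in mammals answers to the ratio of ATP to ADP, read 575.3 and 438.7 on 1 probe set and 257.4 and 196.0 on another. Both gave a log2 ratio of -0.40, although these probe sets were designed on the same transcript cluster and are not independent. Its paralogue cox4i2.S read 233.2 and 217.4, and cox7a2.S read 655.4 and 557.8, a log2 ratio of -0.24. Not every subunit was lower: cox5a.S was level at 2250.1 and 2289.6, and cox6a1.L at 506.4 and 515.1, while its copy cox6a1.S read 535.1 and 468.3. The dim cox5b.2.L read 73.2 and 57.5. The product of ndufa4, named for complex I, was later found in complex IV of mammals. Counting its 2 copies there gave complex IV a median of -0.29 over 13 genes, and the median of complex I was unchanged at -0.075.

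Complex V had the widest range of the complexes. Its 15 measured genes had a median of -0.21 on the log2 scale, and 11 were below 0. Their mean was -0.071, with the 3 highest genes from 0.33 to 0.84. The catalytic head, F1, was divided. The alpha subunit gene atp5f1a.L read 1506.7 and 1393.6, and the catalytic beta subunit gene atp5f1b.S read 5811.6 and 5040.1, log2 ratios of -0.12 and -0.21. The gamma subunit, the central shaft, had copies on opposite sides of 0, with atp5f1c.L at 625.4 and 542.1 and atp5f1c.S at 580.8 and 734.0. The delta subunit gene atp5f1d.L was near level at 192.5 and 200.4. The 5 genes of F1 had a median of -0.12.

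The peripheral stalk holds F1 still against the turning shaft, and 5 of its 6 measured genes were below 0. The coupling factor 6 gene atp5pf.L read 425.5 and 311.3, 1.38-fold lower. The oligomycin sensitivity subunit gene was lower in both copies, with atp5po.L at 593.2 and 474.2 and atp5po.S at 143.2 and 109.1, log2 ratios of -0.33 and -0.40. The b subunit copies atp5pb.L and atp5pb.S were closer to 0, at -0.17 and -0.045. Set against these, the d subunit gene atp5pd.S read 153.2 and 276.5, 1.79-fold higher and the highest of the set. It was read by a single probe set, as were all but 4 of the 60 measured genes. Its copy atp5pd.L, just under the filter, read 78.0 and 66.8.

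Among the membrane genes of complex V, 3 of 4 were below 0. The c subunit forms the ring that turns as protons pass, and several genes encode it. The gene atp5mc3.S read 5747.3 and 5010.0, a log2 ratio of -0.21, whereas atp5mc1.S read 174.7 and 237.5, a log2 ratio of 0.43. The dim copy atp5mc1.L read 60.9 and 40.6, and a probe set naming both copies of atp5mc1 read 350.5 and 375.3. The f and g subunit genes were lower, with atp5mf.S at 1332.8 and 1076.1 and atp5mg.L at 233.7 and 199.2. The inhibitor gene atp5if1.L, whose product stops the enzyme from running in reverse, read 122.3 and 100, a log2 ratio of -0.30.

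The copies from the long and short subgenomes gave similar pictures as groups. The 30 measured .L genes had a median log2 ratio of -0.16 and the 30 .S genes -0.20, with 24 below 0 in each. Within pairs they differed about as much as the copies of other genes on the array did. Of 8 genes with both copies measured, 4 were below 0 in both (atp5pb, atp5po, cox7c and ndufa4), ndufs7 was above 0 in both, and 3 lay on opposite sides of 0. Among all 524 measured pairs on the array, 201 lay on opposite sides. The median distance between copies was 0.19 in the set and 0.21 over all pairs. For uqcrq.S and cox7a2l.L the suffix of the symbol and the subgenome of the chromosome in the gene table differed, so which copy each reads is uncertain, and near-identical copies can share signal.

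**Figure D3:**
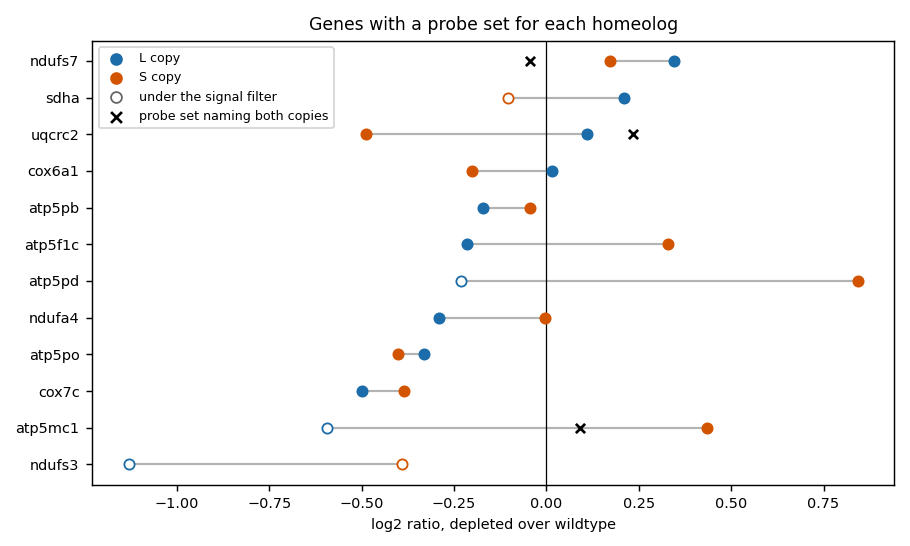
Log2 ratio of the .L copy (blue) and the .S copy (orange) for 12 genes with a probe set for each (cox4i2, with a copy under the floor, is not drawn), with open points under the signal filter and crosses for probe sets that name both copies. The widest gaps, in atp5pd and atp5mc1, join a dim .L copy to a higher .S copy.

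The lower ratios were seen at every level of signal. With all measured genes ranked by mean signal into 4 equal bins, the 16 members in the brightest bin had a median of -0.28, with 15 below 0, against -0.0071 for the other genes there. In the dimmest bin 8 members had a median of -0.22, against -0.032 for the others. The values in between were -0.065 over 17 members in the second bin and -0.17 over 19 in the third, against 0.013 and 0.015 for the others. A loess fit of the ratio on signal left the subunits' median at -0.14.

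**Figure D4:**
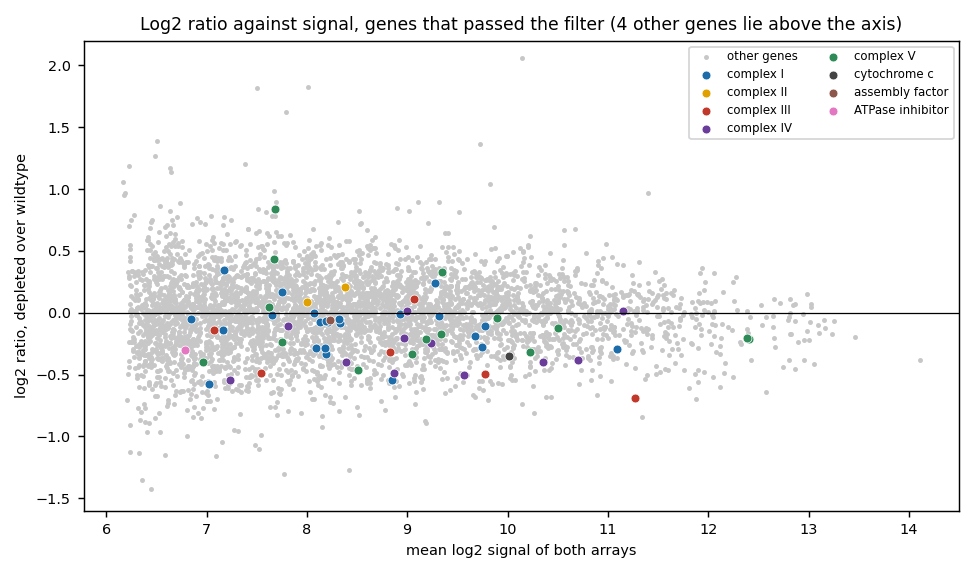
Log2 ratio against mean log2 signal for the 4543 measured genes, with members coloured by complex and other genes in grey. Most coloured points lie below 0 along the whole signal axis, with uqcrq.S the lowest at -0.69 and atp5pd.S the highest at 0.84, and 4 other genes lie above the plotted range.

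Genes that work beside the complexes did not all go the same way. Of 45 assembly and electron transfer factors listed outside the naming rule, 22 had a named probe set and 20 were measured. With both copies of coa7 and cox17 counted, the median was -0.18 on the log2 scale over 22 genes. Of these 15 were below 0, or 68.2%, where 50.8% of all genes were. The haem farnesyltransferase gene cox10.L, needed to make haem a for complex IV, read 164.0 and 100.8, 1.64-fold lower, and was the only one past 1.5-fold. The copper chaperone copies cox17.L and cox17.S went apart, at -0.27 and 0.11. The electron transfer flavoprotein genes, which bring electrons from fatty acid oxidation, were divided, with etfa.S at 0.12, etfb.L at 0.20 and the oxidoreductase etfdh.L at -0.13.

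The citric acid cycle and pyruvate dehydrogenase genes had a median of 0.054 over 15 genes, with 9 above 0. The isocitrate dehydrogenase subunits were divided: idh3b.S read 106.8 and 64.5, 1.67-fold lower, and idh3a.S was at -0.37, while idh3g.S read 402.6 and 508.7. In this list idh3b.S passed the filter of 75 only through the array labelled wildtype. The gene mdh2.L, at 74.5 and 90.3, passed only through the array labelled Derriere depleted. The filter therefore fixed the direction of both. The brighter copy of the latter, mdh2.S, was at -0.38 over 2 probe sets. The citrate synthase gene cs.L, over 3 probe sets, was at 0.11, and the oxoglutarate dehydrogenase gene ogdh.L was at 0.31. Carriers and pores of the mitochondrial membranes had a median of -0.10 over 5 genes. Of these the outer-membrane channel gene vdac2.S read 1136.8 and 702.9, 1.63-fold lower, while the ADP/ATP carrier gene slc25a5.L read 9006.4 and 8445.5.

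The measured regulators of these genes differed little, but the list was covered in part. Of 16 regulators listed, 9 were measured, and ppargc1a, ppargc1b, pprc1, tfb2m and mterf1 had no named probe set. With both copies of yy1 counted, the median was 0.047 over 10 genes, from -0.27 to 0.20, and none passed 1.5-fold. The mitochondrial transcription factor gene tfam.L read 211.3 and 226.9 and the mitochondrial RNA polymerase gene polrmt.L 153.8 and 175.5. The genes for GABP, an activator of many respiratory chain genes in mammals, read 424.2 and 398.0 for gabpa.S and 348.6 and 334.3 for gabpb1.S. The nuclear receptor gene esrra.L was the lowest of the list, at 105.4 and 88.1.

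Markers of several tissues and measures of RNA differed between the arrays as well. The lists are short, and of all genes 50.8% were below 0. Of 11 measured genes of the skeletal muscle list 9 were below 0, with a median of -0.37, and the signals of all 12 on the array summed to 15837 and 12444. The lowest was the troponin gene tnnt3.S at 573.9 and 335.3, and the myogenic factor genes myod1.L and myod1.S were near level at 0.059 and 0.068. Below 0 lay also 5 of 5 measured notochord genes, with a median of -0.21 and summed signals of 976.8 and 747.5. Of 6 measured neural genes 4 were below 0, with a median of -0.20, and the signals of all 11 on the array summed to 2336.2 and 2037. The neural list was split, from sox2.L at -0.60 to sox3.L and sox3.S at 0.035 and 0.19. Markers of posterior mesoderm had a median of 0.13 over 6 genes. Above 0 lay 3 of 3 endoderm genes and both copies of ag1, the only cement gland gene measured. The endoderm gene sox17a.L read 56.2 and 147.8, and the epidermis gene cdh1.S 52 and 101.2. They passed the filter of 75 only through the array labelled Derriere depleted, so the filter fixed their direction. Of 5 measured epidermis genes 4 were above 0, with a median of 0.59. The signals of all 6 epidermis genes on the array summed to 9654.3 and 9133.7. The brightest marker of that list, the lectin gene itln1.L, read 8244.9 and 7025.5. For beta-actin the 3' probe set exceeded the 5' one 4.74-fold and 3.54-fold, and for Gapd 32.3-fold and 24.3-fold. The same measure was 206.5 and 126.3 for a3Act and went the other way for a1Act, at 65.3 and 71.6. The 5' probe sets of a3Act, at 23.5 and 33.5, and of Gapd, at 36.5 and 38.3, lay under the filter of 75. The ratios of a3Act and Gapd are therefore imprecise. Over 24 probe sets for poly-A controls, several to a control, the median uncentred log2 ratio was -0.79, taken without floor or filter. The part of tissue content, of RNA quality or of labelling in the lower signals of the respiratory chain genes was not tested.

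**Figure D5:**
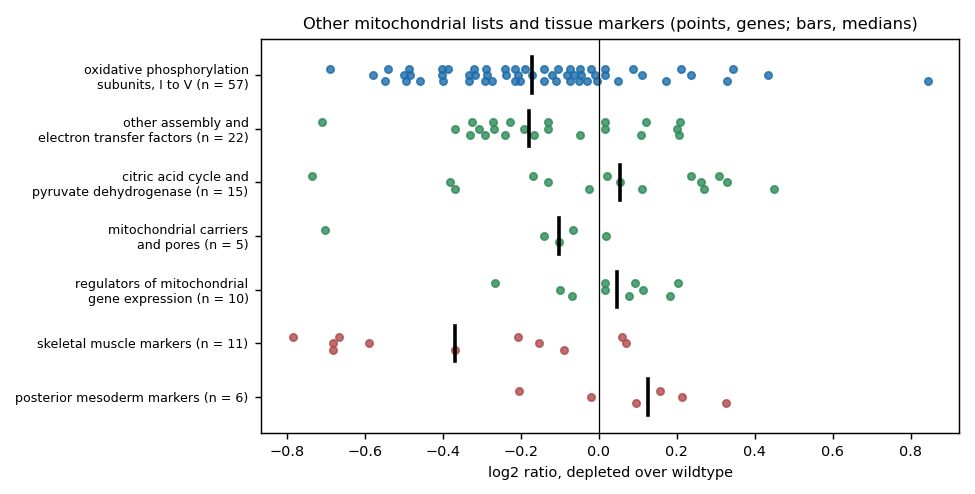
Log2 ratio of each measured gene for the 57 subunits, for 4 other mitochondrial lists and for muscle and posterior mesoderm markers, with black bars at the medians. The medians of the subunits (-0.17) and of the other assembly and electron transfer factors (-0.18) lie below 0. The median of the muscle markers lies lower (-0.37), and those of the citric acid cycle and regulator lists (0.054 and 0.047) lie just above 0. Each list holds genes on both sides of 0.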

How the data were processed

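The deposited values were probe set intensities, linear and never negative, which the authors computed with MAS5 according to the submitters' processing notes. Its version, its scaling target and any detection calls were not stated. MAS5 is noisy at low signals, and the number of arrays, 1 per group, limits the precision. Of 15611 probe sets, 120 controls were left out. Genes were named from the platform table where a probe set had exactly 1 symbol (9304 probe sets).

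Signals were raised to a floor of 19.7, the 25th percentile over the arrays, and turned to log2. Probe sets with a mean signal of at least 75, the median, were kept. Centring on the median shifted the ratios by 0.0089. A gene was the mean of its kept probe sets. Median signals were 75.4 and 74.1. No test was run.

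Members and lists were chosen with earlier results of these data known, and the core against accessory split with the values in view. The text names the 3 lowest and 3 highest genes of each complex, genes past 1.5-fold, fixed core subunits, disagreeing copies or probe sets, and further members that illustrate a complex. Alternatives varied the floor, centring, normalization, filter and probe set summary. The procedure was checked on simulated arrays. Scripts used Python 3.11.15, numpy 2.4.6, pandas 2.3.3, statsmodels 0.14.6 and matplotlib 3.10.9.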

Additional observations from a re-analysis of the deposited data

How the results depend on the processing

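No paired analysis was possible because there was 1 array per group, which also leaves no replicate to drop. The median of the subunits stayed below 0 in all 13 alternatives, from -0.21 with the filter at the 75th percentile to -0.14 with loess, and the share below 0 ran from 75.4% to 82.1%. The count past 2-fold was 0, or 1 without a filter (ndufs3.L), and 2 genes passed 1.5-fold. Complex III ran from -0.42 to -0.32. It lay above complex IV with homeologs averaged (-0.32 against -0.40) and with every probe set counted (-0.32 against -0.39). By little, it also did so with an offset (-0.375 against -0.377). Probe sets naming both copies were added only to the pooled subunits, so the range of complex III leaves out its own. These were at -0.048 for uqcrfs1 and 0.23 for uqcrc2, both above the complex III median. Complex IV moved to -0.29 as a mean or with ndufa4 counted in it, and complex V to -0.071 as a mean and -0.14 with loess. The median of complex II stayed above 0, from 0.045 over 4 genes without a filter to 0.21 on 1 gene with the stricter filter. The core genes of complex I changed sign, to -0.0012 without a filter and -0.015 with the stricter one, where 7 and 3 genes were measured in place of 5. Of 521 single-gene values, 520 moved by no more than the technical SD of 0.228, and ndufb9.L turned to 0.26 on its brightest probe set. Removing or raising the floor and changing the centring or filter could hardly move a gene read by 1 probe set. Taking the brightest probe set could change only the 4 genes with several. The count is therefore no measure of stability. Probe sets naming both copies, ndufa4 in complex IV and all alternatives for core and accessory genes were added after the data were seen. The MAS5 steps themselves were not varied.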
